A study of Mus musculus with 10 samples.

Results

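The enzymes that turn cholesterol into conjugated bile acids were followed in mouse hepatocytes over 4 times of day and along the axis of the liver lobule. The set was chosen by name from the gene rows of the deposited UMI tables. The rule uses no measured value, but the choice was made with earlier results of these data known. It holds 10 of 14812 gene entries, spelled in lower case in the files: cyp7a1, cyp8b1, cyp27a1, cyp7b1, hsd3b7, akr1d1, akr1c6, slc27a5, acox2 and baat. A UMI is a tag that marks 1 captured RNA molecule. Of the 10 genes, 9 had UMIs in all 10 libraries, and Hsd3b7 had 9 UMIs in all. The libraries came from single hepatocytes of C57BL/6 males, 3 months old, on chow without limit, taken at ZT0 (3 libraries, A to C), ZT6 (2, A and B), ZT12 (3, A to C) and ZT18 (2, A and B). ZT, or zeitgeber time, gives the hour of the light cycle, with lights on at ZT0 by convention. All groups shared ketamine and xylazine anaesthesia, collagenase perfusion and a Percoll gradient, and the 10x Chromium kit. The labels set the 4 groups apart by time and, in part, by the 10x index number. Both ZT18 libraries have an index number found at no other time, and both ZT6 libraries have that of ZT0 B and ZT12 B. Time at ZT18 therefore cannot be separated from the index number. The number of mice behind a library is not stated, so p-values measure the spread between libraries, which may be partly technical.

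Bile acids are made in hepatocytes by a classical and an alternative route. The classical route starts in the endoplasmic reticulum with Cyp7a1, the rate-limiting cholesterol hydroxylase, and Cyp8b1 adds the hydroxyl group that makes cholic acid. The alternative route starts in mitochondria with the sterol hydroxylase Cyp27a1, whose oxysterols are hydroxylated by Cyp7b1, and Cyp27a1 also begins the oxidation of the side chain in both routes. Hsd3b7 and Akr1d1 modify the sterol ring, and Akr1c6 is an aldo-keto reductase of the same enzyme superfamily as Akr1d1. Slc27a5 links bile acids to coenzyme A, Acox2 is a peroxisomal oxidase that shortens the side chain, and Baat conjugates the product to taurine or glycine. The P450 genes lie on GRCm38 (GENCODE) at chr4:6265612-6275633 (Cyp7a1), chr9:121914356-121916305 (Cyp8b1), chr1:74713574-74737892 (Cyp27a1) and chr3:18071950-18243338 (Cyp7b1). In the lobule, blood runs from the portal vein, at the periportal end, to the central vein, at the pericentral end.

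Promoter entries of the RefSeq table (GRCm38.p6) were matched by symbol for 6 of the 10 genes: Cyp27a1, Akr1d1, Hsd3b7, Cyp8b1, Akr1c6 and Acox2. The 250 bases before the start of 3 genes that were higher at the pericentral end are shown, since they hold matches to motifs named for factors of bile acid synthesis or of the clock. Each is written 5′ to 3′ on the gene's strand, with motif matches in capitals.
Cyp8b1, chr9:121916306-121916555, minus strand: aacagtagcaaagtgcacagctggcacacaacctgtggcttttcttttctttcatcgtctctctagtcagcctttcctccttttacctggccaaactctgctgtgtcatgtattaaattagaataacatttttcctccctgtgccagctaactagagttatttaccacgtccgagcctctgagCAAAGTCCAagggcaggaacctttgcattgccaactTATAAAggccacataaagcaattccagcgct
Cyp27a1, chr1:74713285-74713534, plus strand: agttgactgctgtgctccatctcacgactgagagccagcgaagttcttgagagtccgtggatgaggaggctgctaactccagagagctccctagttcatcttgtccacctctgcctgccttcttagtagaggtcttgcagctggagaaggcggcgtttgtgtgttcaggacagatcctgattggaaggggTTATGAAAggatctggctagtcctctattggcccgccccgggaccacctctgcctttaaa
Akr1d1, chr6:37529923-37530172, plus strand: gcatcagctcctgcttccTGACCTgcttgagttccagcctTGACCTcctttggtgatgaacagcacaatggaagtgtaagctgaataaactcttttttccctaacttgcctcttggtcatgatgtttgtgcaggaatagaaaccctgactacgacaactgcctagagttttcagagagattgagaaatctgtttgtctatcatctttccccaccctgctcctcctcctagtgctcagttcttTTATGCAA
The motifs were searched on both strands and none of the matches overlapped another. In Cyp8b1 the first capitals are CAAAGTCCA, a motif of the type bound by Hnf4a, which begins 67 bases before the start. This word was found in 0.384% of 32851 promoter windows of the same length. The next capitals in Cyp8b1 are TATAAA, 31 bases before the start, a word found in 12.4% of windows. In Cyp27a1 and Akr1d1 the last capitals match TTATGNAA, a loose word for the D-box bound by clock output factors such as Dbp and Nfil3. Its open position, N, is A in Cyp27a1 and C in Akr1d1. The matches begin 60 and 8 bases before the RefSeq start. For Cyp27a1 that start lies before the GENCODE start given above, so its distance holds for the RefSeq start alone. The D-box word was found in 3.07% of windows. The other capitals in Akr1d1 are 2 reverse-strand matches to the nuclear receptor half-site AGGTCA, present in 14% of windows. In the other windows, Akr1c6 held TATAAA and 1 of 2 Acox2 windows held CTTTGA, the TCF/LEF core found in 13.8% of windows. The E-box CACGTG (6.02% of windows) and TCAAGGNCA, a motif of the type bound by Nr5a2 (1.39%), had no match in any of the 7 windows of these genes. These matches describe letters and were not tested against the values that follow.

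The libraries held 710 to 2860 cells and 1454623 to 7144803 UMIs, 18378 cells in all. The labelled cell type was checked with its markers: 5 hepatocyte markers summed to 33869 to 62867 CPM (UMIs scaled to a library total of 1000000). Of other cell types, 5 endothelial markers summed to 2.75 to 14.5 CPM with Clec4g at 0 throughout, 4 stellate markers to 2.82 to 10.3, and 4 cholangiocyte markers to 0.773 to 32.5, highest at ZT0. Of 5 macrophage markers, Clec4f, Csf1r and C1qa were at 0 throughout and the sum was at most 3.84 CPM. Of 4 lymphocyte markers, Cd3e, Cd79a and Nkg7 were at 0 and the sum was at most 0.609, and 2 neutrophil markers reached at most 7.70. The ZT18 libraries stood apart from the rest by more than their index number. Entries with Gm-numbered names took 0.720% to 0.737% of their UMIs against 0.285% to 0.471% at other times. Summed erythroid markers (5 of 6 listed) were at 361 CPM in 1 ZT18 library, while the other, at 99.0, lay inside the range of 72.2 to 108 at other times. Haemoglobin entries alone took 0.000880% and 0.0293% of UMIs at ZT18, both above the range of 3.38e-05% to 0.000832% at other times. Waves over whole libraries that passed, in members and related genes, are therefore given also without both ZT18 libraries, and the part of these features in them was not tested. A fit without ZT18 has as many terms as times left. It tests any difference among those times and not the shape of a wave. The files number cells without barcodes, so barcodes shared between libraries could not be counted, and no pair of cells held identical values. A CPM is a share of a library's UMIs. In a sum over cells, fewer cells with a transcript and less of it per cell cannot be told apart.

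Cyp7a1 and Baat were the 2 members with a 24-h wave, with peaks at ZT13.3 and ZT19.2. Of the 9 members above the low-value limit of 3 CPM, these 2 passed edgeR's quasi-likelihood test of a cosine and sine with Benjamini-Hochberg adjustment over 8908 genes. Over all genes tested, 5.14% passed. Levels per library are in CPM without further scaling, while the tests used TMM scaling between libraries.

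Cyp7a1 was at 67.2, 37.9 and 62.0 CPM in the ZT0 libraries A, B and C, and at 47.3 and 71.1 at ZT6. It was at 337, 95.5 and 283 CPM at ZT12, and at 55.6 and 122 at ZT18. All ZT12 libraries lay above those of ZT0 and ZT6, and the lowest of them, B, lay below the higher of the ZT18 libraries. The fitted wave peaked at ZT13.3 with a log2 amplitude, the distance from mean to peak, of 1.02 (adjusted p = 0.0431), which makes a peak-to-trough ratio of 4.11. From ZT0 to ZT12 the mean went from 55.7 ± 15.6 to 238 ± 127 CPM (SD, n = 3 each). The log2 difference was 1.93 ± 0.42 (SE, adjusted p = 0.0209), where 3.44% of genes passed, 1.74% higher and 1.7% lower at ZT12. Cyp7a1 was the 1 member of 9 whose ZT0 and ZT12 libraries did not overlap, against 18.1% of all genes tested. Both calls sat near the threshold. The wave was no longer called when any 1 of ZT0 B, ZT0 C, ZT6 A, ZT6 B, ZT12 A, ZT12 C or ZT18 B was left out, with amplitudes of 0.81 to 1.07, and under limma-voom (0.97, adjusted p = 0.0721). Without both ZT18 libraries it was called, at 1.36 with a peak at ZT15.0 (adjusted p = 0.022). No library of that fit lies between ZT12 and the next ZT0, where this peak falls. Adjusted p-values of the wave over all alternatives ran from 0.00199, with DESeq2, to 0.126. The ZT12 difference lost its call without ZT0 B (1.70, adjusted p = 0.0821), ZT12 A (1.54, 0.106) or ZT12 C (1.82, 0.0691). It kept its call in 18 of 21 alternatives, among them those with the library letter or the index number as a block.

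Cyp8b1 had its lowest mean at ZT12, where the mean of Cyp7a1 was highest. Its levels were 124, 212 and 243 CPM at ZT0, then 223 and 169 at ZT6, 95.6, 119 and 171 at ZT12, and 167 and 233 at ZT18. Every library letter was lower at ZT12 than at ZT0, but the 2 groups overlapped because ZT0 A was low. The log2 difference of ZT12 from ZT0 was −0.72 ± 0.25 and missed the threshold (adjusted p = 0.164). Libraries of the same letter at ZT0 and ZT12 deviated together, and they also share an index number. With the letter as a block the difference was −0.72 and passed (adjusted p = 0.0491), which took the members called from 1 to 2. The 24-h wave of Cyp8b1, with an amplitude of 0.36 and a peak at ZT23.4, did not pass (adjusted p = 0.307). It passed with the index number from the labels as a block, at 0.44 with a peak at ZT2.35 (adjusted p = 0.0458). The index number of the ZT18 libraries occurs at no other time, so that fit rests on the other times. It does not test the shape of a wave.

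Cyp27a1, the entry enzyme of the alternative route, showed no wave that passed. Its libraries ran from 110 to 261 CPM, and the group means in order of time were 184 ± 69.7, 213 ± 5.22, 189 ± 50.9 and 235 ± 36.4 (SD, n = 3, 2, 3 and 2). Each pair of times overlapped. The fitted amplitude was 0.12 (adjusted p = 0.869).

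Cyp7b1 varied widely between libraries of the same time. It was at 150, 42.8 and 225 CPM at ZT0, then 51.8 and 40.2 at ZT6, 56.4, 25.8 and 260 at ZT12, and 146 and 173 at ZT18. The C libraries were the highest and the B libraries the lowest at both ZT0 and ZT12. Its fitted amplitude of 0.96 was close to that of Cyp7a1, but it did not pass (adjusted p = 0.366). Without ZT12 C it was 1.32 and passed (adjusted p = 0.0406). Between ZT6 and ZT18 the libraries did not overlap, as was the case for 62% of all genes tested. The log2 difference was 1.87 ± 0.81 and missed the threshold (adjusted p = 0.217). That difference passed when no low-value limit was set (adjusted p = 0.0405) and when only the 4 libraries of these 2 times were fitted (4.61e-05). The fit of those 4 libraries called 1849 of 8943 genes, against 338 of 8908 in the main fit.

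Of the enzymes that follow on the ring, Hsd3b7 was too rare to compare. It had 0, 3 and 0 UMIs at ZT0, then 3 and 0 at ZT6, 0, 0 and 1 at ZT12, and 0 and 2 at ZT18. A library with 0 UMIs still allows up to 0.420 CPM in the deepest library and 2.06 CPM in the shallowest. Akr1d1 was at 156, 148 and 151 CPM at ZT0, then 111 and 94.3 at ZT6, 307, 96.9 and 123 at ZT12, and 178 and 140 at ZT18. The library ZT12 A was far above the others. The wave of Akr1d1 did not pass with it (amplitude 0.35, adjusted p = 0.616) and passed without it, with an amplitude of 0.48 and a peak at ZT20.8 (adjusted p = 0.0401). Akr1c6 was at 552 to 1155 CPM. Its amplitude was 0.20 and did not pass (adjusted p = 0.774). Reads of Akr1c6 may be split with other genes of the Akr1c family, depending on how the counting treated shared sequence.

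**Figure D1:**
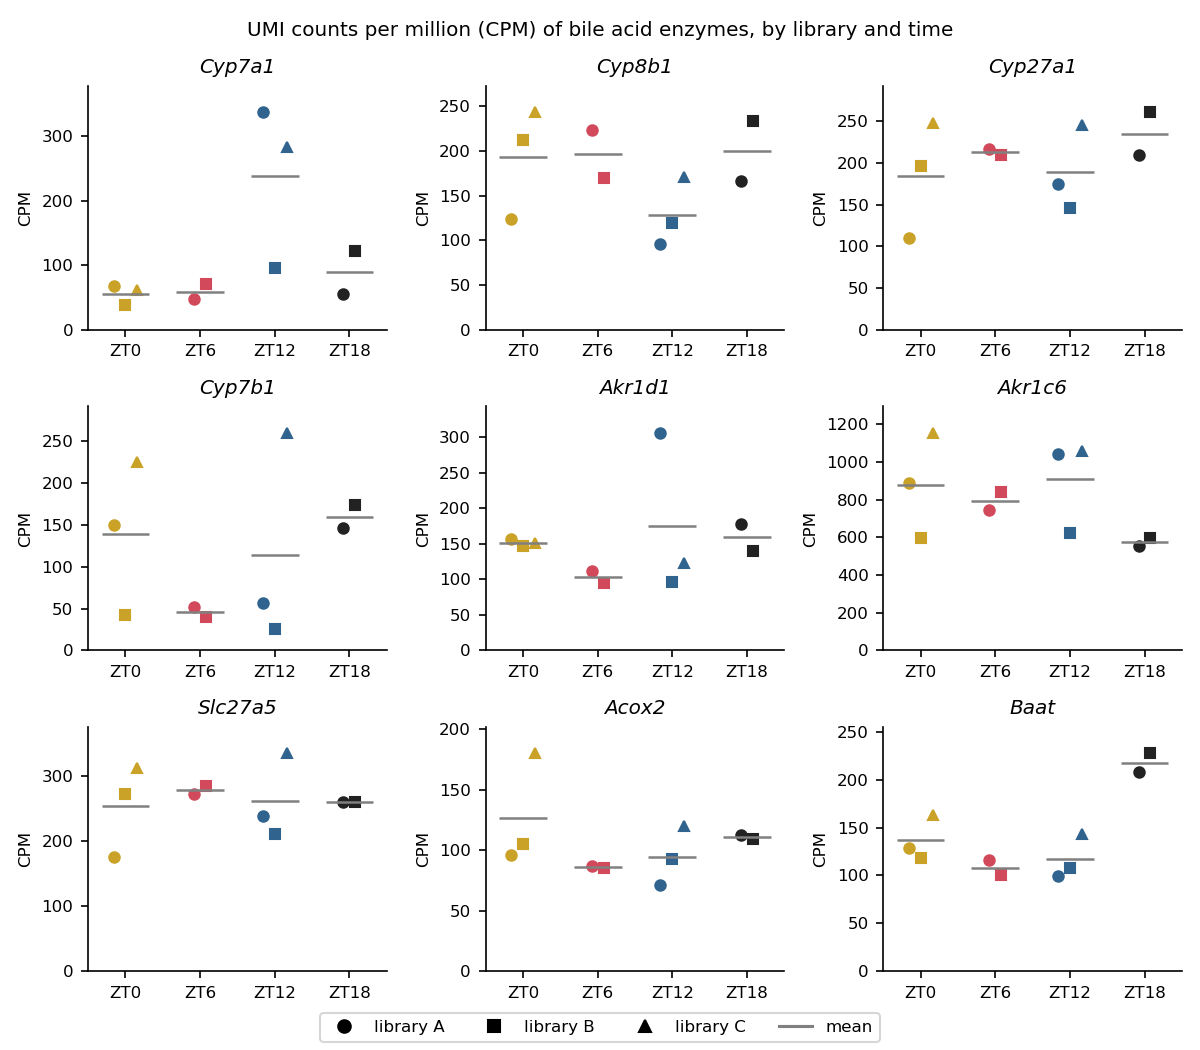
Level in CPM (vertical axis from 0) of 9 enzymes in each library at ZT0, ZT6, ZT12 and ZT18. Points are libraries (circle A, square B, triangle C) and grey lines are group means; Cyp7a1 is highest at ZT12 with library B at 95.5 CPM, and both ZT18 libraries of Baat lie above all others.

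Baat, which conjugates bile acids to taurine and glycine, was highest at ZT18. It was at 128, 119 and 163 CPM at ZT0, then 116 and 100 at ZT6, 99.0, 108 and 143 at ZT12, and 208 and 228 at ZT18. Both ZT18 libraries lay above each of the other 8. The wave peaked at ZT19.2 with an amplitude of 0.58 (adjusted p = 0.0317). From ZT6 to ZT18 the mean went from 108 ± 11.6 to 218 ± 14.04 CPM (SD, n = 2 each). The log2 difference was 1.09 ± 0.23 (SE, adjusted p = 0.0194), where 3.79% of genes passed, 2.35% higher and 1.45% lower at ZT18. Non-overlap between ZT6 and ZT18 was common, with 6 of 9 members against 62% of all genes tested. The Baat result rested on ZT18. Without both ZT18 libraries the amplitude was 0.30 (adjusted p = 0.469). Leaving out any 1 of the 4 libraries at ZT6 and ZT18 ended the ZT18 call, with differences of 1.0 to 1.17 (adjusted p from 0.0961 to 0.191). The wave was also lost without ZT6 B, ZT12 B, ZT18 A or ZT18 B (0.48 to 0.62), and with scaling by library size alone (0.52, adjusted p = 0.0768). It was lost as well with the index number from the labels as a block (0.21, adjusted p = 0.226). That block takes ZT18 out of the wave, as index 4 of the ZT18 libraries occurs at no other time.

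The ligase Slc27a5 and the oxidase Acox2 did not pass. Slc27a5 was the steadiest member, at 176 to 335 CPM with group means between 253 and 278, and an amplitude of 0.05 (adjusted p = 0.955). Acox2 was at 95.8, 105 and 180 CPM at ZT0, then 87.0 and 85.4 at ZT6, 70.8, 92.5 and 120 at ZT12, and 113 and 109 at ZT18. Its amplitude of 0.36 with a peak at ZT21.5 missed the threshold (adjusted p = 0.205).

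The relation of Cyp7a1 to the other 3 cytochrome P450 enzymes was highest at ZT12 on average, and the test over the 4 times did not pass. The ratio was taken per library as log2 of CPM + 1, with no scaling by transcript length. For Cyp7a1 to Cyp7b1 it was −1.15, −0.17 and −1.84 at ZT0, then −0.13 and 0.81 at ZT6, 2.56, 1.85 and 0.12 at ZT12, and −1.38 and −0.50 at ZT18. The ZT12 libraries lay above all ZT0 and ZT18 libraries, while ZT12 C lay inside the range of ZT6. For Cyp7a1 to Cyp8b1 the means were −1.76 ± 0.81, −1.72 ± 0.69, 0.74 ± 1.06 and −1.25 ± 0.45 in order of time (SD, n = 3, 2, 3 and 2). In that ratio each ZT12 library lay above all 7 libraries of other times. For Cyp7a1 to Cyp27a1 the means were −1.67, −1.86, 0.18 and −1.49, and again the ZT12 libraries lay above the rest. Exact permutation tests of the F statistic over 25200 assignments gave p = 0.0695, 0.0524 and 0.0773, or 0.0773 for each after adjustment over the 3 ratios. The smallest p this design allows is 0.000159. That test does not use the letters that pair ZT0 and ZT12. Within letters A, B and C the ratio was higher at ZT12 by 3.70, 2.02 and 1.97 for Cyp7b1, by 2.68, 2.14 and 2.68 for Cyp8b1, and by 1.64, 1.73 and 2.19 for Cyp27a1. The changes thus had 1 sign, but the 3 ratios share Cyp7a1 and the same 3 pairs, so they are not separate observations. An exact 2-sided sign-flip test over 3 pairs gave p = 0.25 for each ratio, the smallest it allows.

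**Figure D2:**
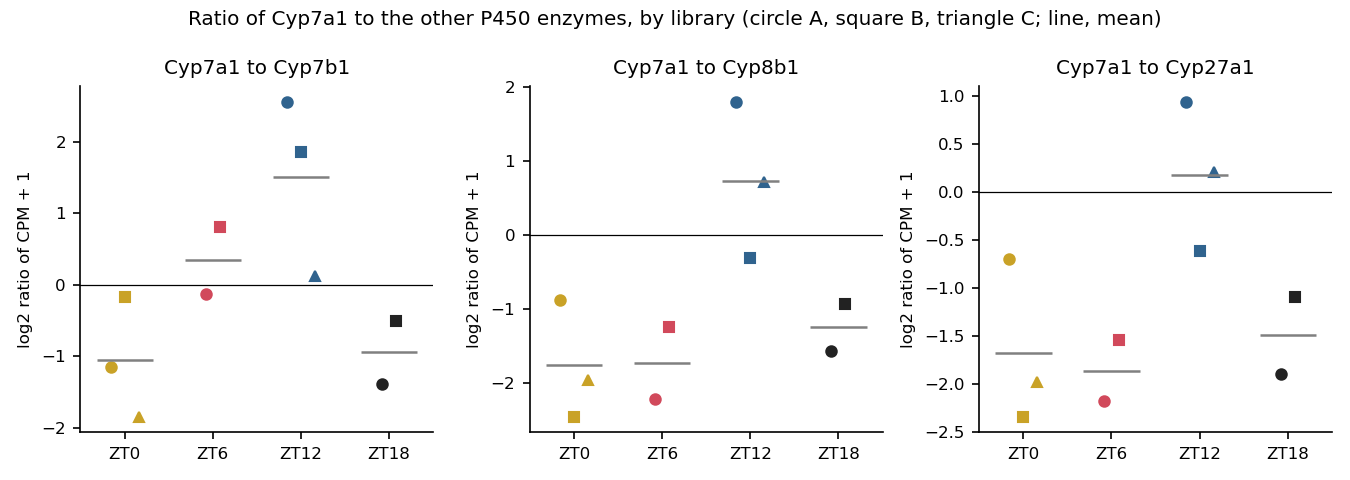
Log2 ratio of Cyp7a1 to Cyp7b1, Cyp8b1 and Cyp27a1 (each as CPM + 1, vertical axis) in each library by time. Points are libraries (circle A, square B, triangle C) and grey lines are means; the ZT12 mean is 1.51 for Cyp7b1, 0.74 for Cyp8b1 and 0.18 for Cyp27a1, and each of the 3 exact tests misses the threshold.

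The second axis was position in the lobule, along which 8 of 9 members differed. Cells of each library were ordered by 16 landmark genes, 8 periportal and 8 pericentral and none of them a member, and cut into 3 equal parts. The outer parts are called the pericentral and the periportal zone. By edgeR 24.8% of 8923 genes passed in either direction. Of the 9 members tested, 7 were higher in the pericentral zone, where 12.8% of genes were, and 1 was higher in the periportal zone, where 12% were. The median log2 difference, periportal minus pericentral, was −0.44 over the 9 members and −0.01 over all genes. In 6 of 9 members the periportal value was the lower one in 10 of 10 libraries, against 8.42% of all genes. None was higher in 10 of 10, as 3.84% of genes were. The share of mitochondrial UMIs also moved with zone. Its median per cell was 11.1% to 23.6% in pericentral and 13.3% to 26.2% in periportal zones, higher in the periportal zone of each library, and its part in the results was not tested. With scaling by library size alone the median of all genes moved by about 0.1, to −0.11, and the split of calls went from 1068 periportal and 1142 pericentral to 710 and 1831.

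Cyp7a1 had the steepest gradient of the set. Its pericentral zones held 171, 87.2 and 113 CPM at ZT0, then 91.5 and 113 at ZT6, 648, 202 and 525 at ZT12, and 150 and 251 at ZT18. Its periportal zones held 3.70, 0.457 and 5.98 CPM at ZT0, then 7.83 and 25.0 at ZT6, 59.7, 12.7 and 54.3 at ZT12, and 8.53 and 24.4 at ZT18. The zones did not overlap, and the periportal values together rest on 200 UMIs against 2577. The log2 difference was −3.68 ± 0.16 (SE, adjusted p = 3.66e-19), a 12.8-fold higher level in the pericentral zone. The 3 periportal zones of ZT0 held 20 of those 200 UMIs, and the ZT0 B zone held 1.

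Over 8 equal layers from the central to the portal end, Cyp7a1 was highest in layer 1 in 10 of 10 libraries. Its mean fell from 287 ± 231 CPM in layer 1 to 76.8 ± 99.7 in layer 5 and 14.3 ± 13.5 in layer 8 (SD, n = 10), which is 4.98% of layer 1. Glul and Slc1a2, which mark the hepatocytes next to the central vein and were not landmarks, reached 1.71% and 0.124% of layer 1 in layer 8. By time, layer 8 held 1.17%, 14.03%, 4.66% and 5.63% of layer 1 for Cyp7a1, against 0.950%, 1.499%, 1.53% and 9.22% for Glul, so the order of these 2 genes was the other way round at ZT18.

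Cyp7b1, of the alternative route, came next among the P450 enzymes. Its log2 zone difference was −1.41 ± 0.16 (adjusted p = 9.69e-09), with 180 ± 127 CPM in the pericentral and 68.9 CPM in the periportal zone on average. It was highest in layer 1 in 9 of 10 libraries and kept 31.6% of its layer 1 mean in layer 8. Cyp27a1 had a log2 difference of −0.85 ± 0.08 (adjusted p = 7.24e-11). Its mean over libraries was 281 ± 53.8 CPM in layer 1 and 126 ± 41.2 in layer 8, or 45.0% of layer 1.

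Cyp8b1 had the shallowest zone difference of the 4 P450 enzymes, and over all libraries its mean was highest in layer 3. The log2 difference was −0.43 ± 0.09 (adjusted p = 0.000262), lower in the periportal zone in 9 of 10 libraries. In 8 of 10 libraries its highest layer was between layers 3 and 5, and in 2 it was layer 1 or 2. At ZT6 the mean was highest in layer 1, at 269 CPM. The mean was 194 ± 56.7 CPM in layer 1, 215 ± 56.0 in layer 3 and 138 ± 51.0 in layer 8 (SD, n = 10). The difference between layers 1 and 3 is smaller than the spread between libraries, and it was not tested.

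**Figure D3:**
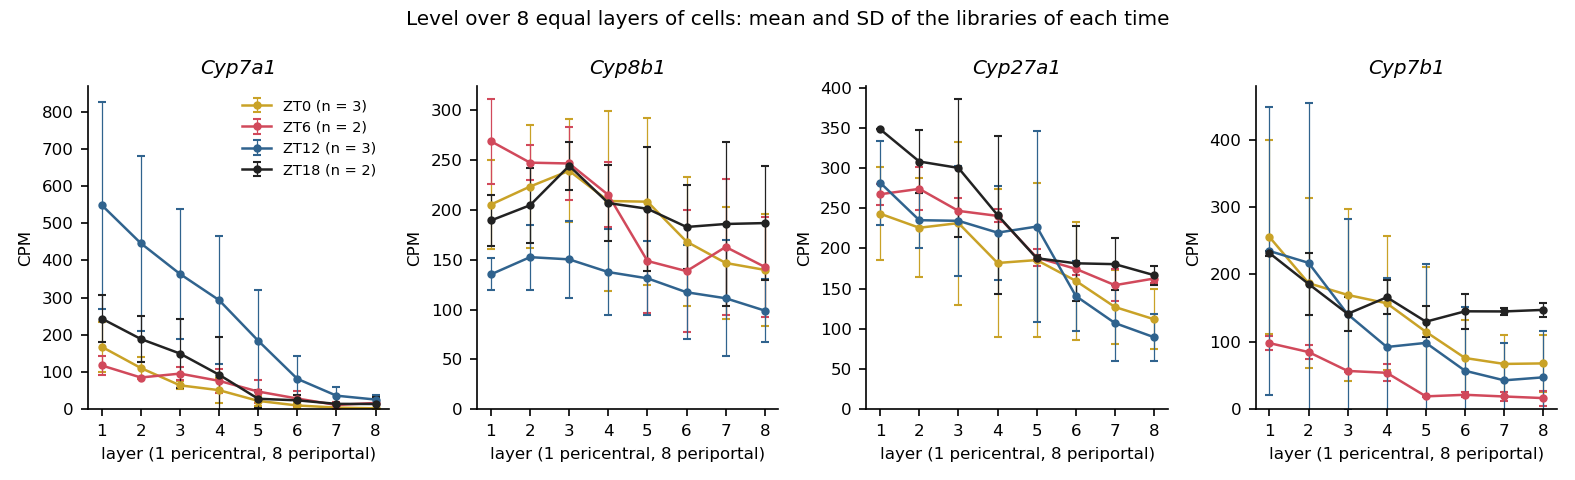
CPM of the 4 P450 enzymes over 8 equal layers of cells, from 1 (pericentral) to 8 (periportal), as the mean of the libraries of each time with SD bars (n = 3 at ZT0 and ZT12, n = 2 at ZT6 and ZT18). Cyp7a1 nears 0 at the portal end at all times, Cyp8b1 varies little over layers 1 to 4, and Cyp7b1 at ZT18 stays at 147 CPM in layer 8.

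The zone differences of the 4 P450 enzymes differed from each other. All 6 pairs were compared over the 10 libraries with exact 2-sided sign-flip permutation tests on log2(CPM + 1). Cyp7a1 was steeper than Cyp8b1 by 3.31 ± 1.08 and than Cyp27a1 by 2.87 ± 1.09 (SD, n = 10), each in 10 of 10 libraries (adjusted p = 0.00586 for both, from the smallest p the design allows). Cyp7a1 was steeper than Cyp7b1 by 2.02 ± 1.60, in 8 of 10 libraries (adjusted p = 0.0117). Cyp7b1 was steeper than Cyp8b1 by 1.30 ± 0.92 in 9 of 10 libraries (adjusted p = 0.00781) and than Cyp27a1 by 0.85 ± 0.89 in 8 of 10 (0.0195). Cyp27a1 was steeper than Cyp8b1 by 0.44 ± 0.43 in 8 of 10 (adjusted p = 0.0188). In each route the entry enzyme and its partner thus differed in opposite order: Cyp7a1 was steeper than Cyp8b1, and Cyp27a1 was less steep than Cyp7b1.

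Among the later enzymes, Akr1c6 had the largest zone difference, −1.14 ± 0.08 (adjusted p = 8.83e-14). It was at 803 to 1670 CPM in pericentral and 331 to 659 in periportal zones, with no overlap, and layer 8 held 33.0% of layer 1. Akr1d1 was also higher in the pericentral zone (−0.44 ± 0.07, adjusted p = 3.85e-06), at the same sign in 10 of 10 libraries. Baat differed by −0.20 ± 0.07 (adjusted p = 0.0252). That call was lost in 10 of 23 alternatives, among them DESeq2, narrower outer zones, and leaving out ZT0 B, ZT12 B or ZT18 A, with values of −0.12 to −0.23. Acox2 did not pass (−0.11 ± 0.08, adjusted p = 0.371). Slc27a5 was the 1 member higher at the periportal end, by 0.27 ± 0.07 (adjusted p = 0.00581). It was higher there in 7 of 10 libraries, and with scaling by library size alone its difference was 0.17 and missed the threshold (adjusted p = 0.0591).

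**Figure D4:**
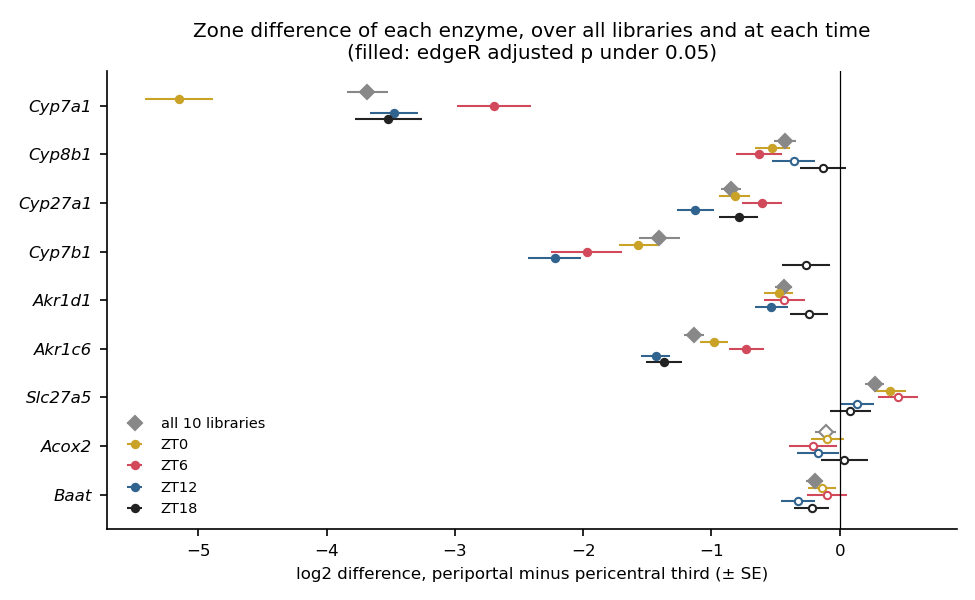
Log2 difference between the periportal and the pericentral zone (horizontal axis, with SE) for 9 enzymes, over all 10 libraries (grey diamonds) and at each time (circles). Filled symbols have an edgeR adjusted p under 0.05; Cyp7a1 lies between −5.15 and −2.70 at the 4 times, and Cyp7b1 moves to −0.27 at ZT18.

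Read at each time, the zone difference of 3 enzymes passed throughout. Members called numbered 7 of 9 at ZT0, then 5 at both ZT6 and ZT12, and 3 at ZT18, where 13.4%, 7.06%, 10% and 6.54% of genes were called. Cyp7a1 differed by −5.15 ± 0.26, −2.70 ± 0.29, −3.48 ± 0.19 and −3.52 ± 0.26 at ZT0, ZT6, ZT12 and ZT18. Akr1c6 differed by −0.98, −0.73, −1.44 and −1.37, and Cyp27a1 by −0.82, −0.61, −1.12 and −0.79. At ZT6 and ZT18 the Cyp27a1 call needed both libraries of the time, and the Akr1c6 call at ZT6 needed library B. Cyp8b1 passed at ZT0 (−0.53, adjusted p = 0.00717) and ZT6 (−0.63, 0.0247), and was at −0.36 at ZT12 and −0.13 at ZT18. Leaving out ZT0 A or ZT0 B ended its ZT0 call and leaving out ZT6 B its ZT6 call (−0.34, adjusted p = 0.619). Akr1d1 passed at ZT0 (−0.48) and at ZT12 (−0.53), the latter not without ZT12 A (−0.42, adjusted p = 0.103). Slc27a5 passed at ZT0 alone (0.39, adjusted p = 0.0279), and not without ZT0 B (0.38, adjusted p = 0.140) or ZT0 C (0.21, 0.402).

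Cyp7b1 was the 1 member whose wave differed between zones by the test of that difference. Only 4 of 8923 genes, or 0.0448%, passed this test. In the pericentral zone Cyp7b1 was at 220, 74.2 and 336 CPM at ZT0, then 86.9 and 78.6 at ZT6, 124, 56.2 and 445 at ZT12, and 171 and 209 at ZT18. In the periportal zone it was at 94.3, 16.9 and 91.9 CPM at ZT0, then 24.1 and 13.04 at ZT6, 8.77, 7.15 and 134 at ZT12, and 144 and 154 at ZT18. The ZT18 libraries were the highest in the periportal zone and in mid-range in the pericentral zone. The zone difference was −1.57 ± 0.15 at ZT0, then −1.97 ± 0.28 at ZT6, −2.22 ± 0.21 at ZT12 and −0.27 ± 0.19 at ZT18, of which the last did not pass (adjusted p = 0.533). The wave of the zone difference had an amplitude of 1.11 and peaked at ZT18.8 (adjusted p = 0.0354). Within the zones the Cyp7b1 wave did not pass in the main fits. Its amplitude was 0.65 in the pericentral zone (adjusted p = 0.674) and 1.57 in the periportal zone (0.111).

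That difference in the Cyp7b1 wave rested on ZT18. Without both ZT18 libraries its amplitude was 0.34 (adjusted p = 0.9997), and without ZT18 A or ZT18 B alone it was 0.94 (0.561) or 0.99 (0.432). The call was also lost without ZT6 B (1.15, adjusted p = 0.117) or ZT12 B (1.03, 0.0746), and with DESeq2 (1.06, 0.781), limma-voom (1.11, 0.057), a limit of 20 CPM (1.119, 0.253) or odd-numbered landmarks (1.06, 0.0555). With the index number as a block the wave of the difference turned to a peak at ZT3.84 and was not called (0.51, adjusted p = 0.774). The overall zone difference of Cyp7b1 was larger without ZT18, at −1.82 (adjusted p = 2.44e-13). The share of Gm-numbered entries set both ZT18 libraries apart, where the zone difference was smallest. Among the other times the 2 did not move together. The share was higher at ZT6 (0.435% and 0.471%) than at ZT0 (0.304%, 0.345% and 0.306%). The zone difference was steeper at ZT6 (−1.97) than at ZT0 (−1.57). The part of the Gm-numbered share in this result was not tested. Both ZT18 libraries also have an index number found at no other time, so its part cannot be separated from that of time.

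**Figure D5:**
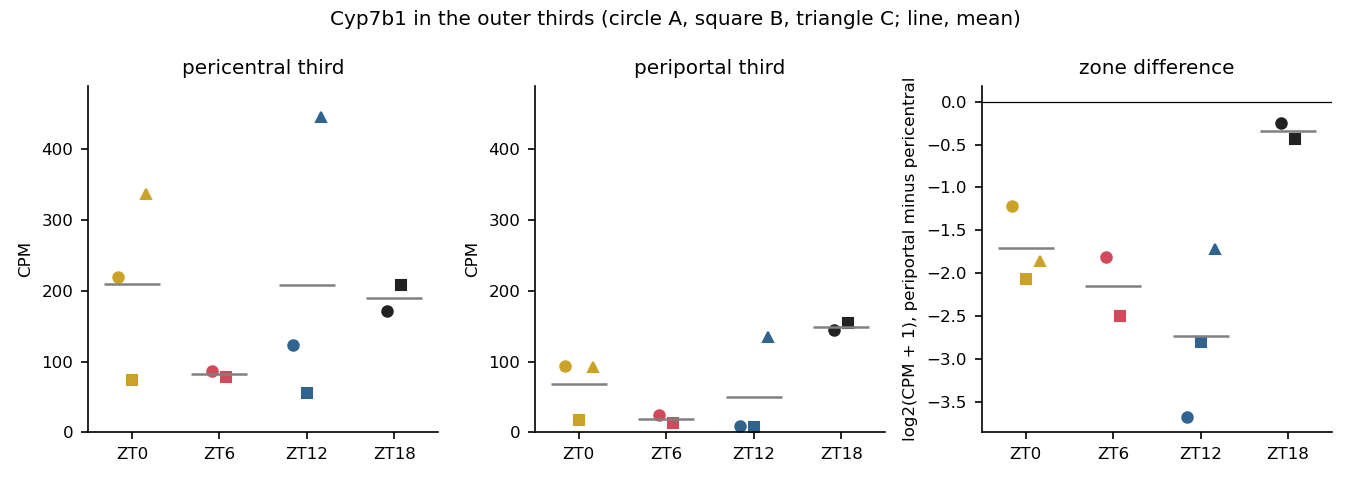
Cyp7b1 in the pericentral and the periportal zone (CPM, vertical axes from 0 on the same scale) and the log2 zone difference (periportal minus pericentral of log2(CPM + 1)) in each library by time. Points are libraries (circle A, square B, triangle C) and grey lines are means; at ZT18 the periportal libraries are at 144 and 154 CPM and the zone difference is nearest to 0.

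Within each zone, the waves of Cyp7a1 and Baat were fitted again. In the periportal zone Cyp7a1 had an amplitude of 1.56 with a peak at ZT12.3 (adjusted p = 0.0336) and Baat 0.57 with a peak at ZT19.4 (0.0478). These were the 2 members called there, where 4.33% of genes passed. In the pericentral zone the amplitudes were 1.0 for Cyp7a1 (peak ZT14.1, adjusted p = 0.0511) and 0.59 for Baat (peak ZT18.7, 0.0527). No member passed in that zone with edgeR, where 2.81% of genes did. At an unadjusted edgeR p under 0.05 Cyp7a1 and Baat did, as did 1299 of 8935 genes. The difference between the zones' waves did not pass for Cyp7a1 (amplitude 0.68, adjusted p = 0.724) or Baat (0.10, 0.946), so the zones are not shown to differ. The periportal calls were lost without several single libraries: Cyp7a1 without any of the ZT0 libraries, ZT12 A or ZT12 C, and Baat without ZT0 C or any library of ZT6, ZT12 or ZT18.

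Related genes were read from lists of bile acid synthesis, taurine supply and regulators. Of 16 other genes of bile acid synthesis and taurine supply, 13 passed the low-value limit, and Ch25h, Cyp46a1 and Star did not. In the zone test 8 of the 13 were higher pericentrally and 1 periportally, against 12.8% and 12% of all genes. The median log2 difference of the 13 was −0.31. Csad, an enzyme of taurine synthesis, differed by −2.74 ± 0.10, Cdo1, which acts before it, by −0.73, and Por, the reductase that passes electrons to microsomal P450 enzymes, by −1.14. Cyp2c70, which makes muricholic acids in mice, differed by −0.58 and the peroxisomal Hsd17b4 by −0.54. Cyp39a1, an oxysterol hydroxylase of a minor route, went the other way at 1.99 ± 0.15. For time, 1 of the 13 had a wave, against 5.14% of all genes tested. Por, with an amplitude of 1.2 and a peak at ZT11.5 (adjusted p = 0.00177), rose by 2.37 ± 0.30 from ZT0 to ZT12. Without both ZT18 libraries the wave of Por was called as well (1.2, adjusted p = 0.00316). Cdo1 fell by 1.30 from ZT6 to ZT18 (adjusted p = 0.0302), a call that was lost without any 1 of the 4 libraries of these times (adjusted p from 0.160 to 0.235).

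Of 15 regulators of bile acid synthesis, all were tested and 4 had a wave, against 5.14% of all genes tested. The D-box activator Dbp had an amplitude of 3.24 with a peak at ZT9.46, and the clock repressor Nr1d1 3.37 with a peak at ZT7.03. Ppargc1a, a coactivator, peaked at ZT10.1 (amplitude 0.69), and the D-box repressor Nfil3 at ZT21.9 (0.96). Without both ZT18 libraries the 4 waves were called as well, with amplitudes of 3.80 for Dbp, 3.35 for Nr1d1, 0.74 for Ppargc1a and 0.85 for Nfil3. From ZT0 to ZT12 Dbp rose by 5.34 and Ppargc1a by 1.22, and Nfil3 fell by 1.70. From ZT6 to ZT18 Dbp fell by 3.76, Nr0b2, the bile acid-induced repressor, by 1.98, and the xenobiotic receptor Nr1i3 by 1.28. Nr1d1 was also called, at 39.6 and 24.7 CPM at ZT6, but it had 1 UMI in each ZT18 library, under the floor of 3 counts, so no fold is given. The Nr1i3 call was lost without any 1 of the ZT6 and ZT18 libraries (adjusted p from 0.135 to 0.249), and the Nr0b2 call without ZT6 A, ZT18 A or ZT18 B (from 0.159 to 0.215). Nr0b2 was at 11.9 and 13.2 CPM at ZT18 against 37.5 and 67.7 at ZT6. In the zone test 4 of the 15 were called, a share near the 24.8% of all genes tested. Nr1i3 was lower in the periportal zone (−1.83 ± 0.09), and Ppargc1a (1.73 ± 0.16), Mafg (0.36) and Hnf4a (0.17, adjusted p = 0.0465) were higher there. The bile acid receptor Nr1h4, at −0.19, did not pass (adjusted p = 0.108).

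Over the 80 sums of 10 libraries by 8 layers, the genes most like each P450 enzyme were found by Pearson's r of log2(CPM + 1) among 4341 genes of at least 20 CPM. These values describe sums that share libraries, depth and the cell order. Cyp7a1 was most like the transporter gene Slco1b2 (r = 0.860), the landmark Cyp2e1 (0.848) and Ugdh (0.840). Cyp27a1 was most like Csad (0.803), Cyp2e1 (0.781) and Pon1 (0.774). For Cyp8b1, Hsp90ab1 (0.784) and Paqr9 (0.766) came first, with Cyp27a1 in the fifth place (0.704). Cyp7b1 was most like Mup17 (0.828), Mup11 (0.800) and Mup12 (0.797), major urinary protein genes whose near-identical copies make their single counts uncertain. Between members, r was 0.60 for Cyp7a1 with Cyp27a1, 0.36 with Cyp7b1 and 0.14 with Cyp8b1.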

How the data were processed

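UMI counts per gene and cell were deposited by the authors as whole numbers, with no normalization. Cell Ranger, mm10 and hg19 are named in the submitters' processing notes, without role or version; the filter on cells is not given in the sources used here. Members, gene lists, motifs and tests were chosen with earlier results of these data known. Counts were summed per library, zone or layer. edgeR 4.0.16 (R 4.3.3; TMM, quasi-likelihood F-tests, mean of at least 3 CPM, threshold 0.05) tested a 24-h cosine and sine, ZT12 against ZT0, ZT18 against ZT6, zones with the library as block, and the zone by wave interaction, adjusting over all genes tested. Adjusted p-values are edgeR's unless another test is named. The SE is the log2 difference over the square root of F. All 10 members are described; related genes are named if called, at most 6 per list and test, by adjusted p. Doublets were not removed. The code was tested on simulated data. DESeq2 1.42.0 and limma 3.58.1 were alternatives. Libraries of the same letter at ZT0 and ZT12 deviated together over genes (r = 0.238, 0.416 and 0.465 for A, B and C), so the letter was taken to pair those 2 times and no others. No 2 libraries of a time were copies (chi-square 5.30 to 63.6 per degree of freedom). Landmarks were Asl, Ass1, Ctsc, Cyp2f2, Ftcd, Hal, Hsd17b13 and Pigr (periportal) and Aldh1a1, Cyp1a2, Cyp2e1, Gulo, Lect2, Mgst1, Oat and Rgn (pericentral); scores from odd and even landmarks correlated across cells with r from 0.683 to 0.847. Limits for a count of 0 use 3 counts and cover counting error only. Versions of the sequence table and annotation were GRCm38.p6 (RefSeq) and GRCm38 (GENCODE). For Cyp8b1, 1 of the 3 genes that the rule of likeness gives is not reported here.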

Additional observations from a re-analysis of the deposited data

Results flagged for a closer look

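The 24-h wave of Cyp7b1 differed between the pericentral and the periportal zone by the test of that difference (log2 amplitude of the difference 1.11, edgeR adjusted p = 0.0354). In the main fits within each zone its wave did not pass. The periportal value was the lower one in 10 of 10 libraries, by least in the 2 ZT18 libraries. The call was lost without either ZT18 library (0.94 and 0.99) or both (0.34). With the index number as a block the wave turned to a peak at ZT3.84 (0.51, adjusted p = 0.774). That block also takes ZT18 out of the wave, since both ZT18 libraries have an index number found at no other time. The ZT18 libraries also carry the highest shares of Gm-numbered entries, and the part of these in the result was not tested.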

How the results depend on the processing

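Zone calls were the steadiest: 7 or 8 of 9 members passed under each of 23 alternatives, and all 6 P450 pairs kept their calls. Of 1629 member values under alternatives, 1531 kept direction and side of the threshold, 69 lost a call, 28 gained one and 1 turned; a further count of 36 changed sign with no call in either fit. The cause of a change was not tested. The number of members with a wave was 2, and 1 with library size alone, limma-voom or without both ZT18 libraries, and 0 to 2 when 1 library was left out. For ZT12 against ZT0 it was 1, and 0 to 1 with 1 library left out. It was 2 under the replicate block and 3 under the 10x index number block (Cyp7a1, Cyp8b1 and Acox2), though both pair the same libraries. For ZT18 against ZT6 it was 1, with 2 without the low-value limit or with the replicate block, 4 from the ZT6 and ZT18 libraries alone and 0 to 1 with 1 library left out. The index number block could not be fitted there, since these times share no index number. For the zone-dependent wave the count was 1, with 0 under DESeq2, limma-voom, a limit of 20 CPM, without both ZT18 libraries or with odd-numbered landmarks, 3 without the limit, 2 with the replicate block and 0 to 2 with 1 library left out. The Cyp7b1 value there turned to a peak at ZT3.84 with the index number block (0.51, adjusted p = 0.774), where Cyp7a1 passed (2.33, 0.00237). Since index 4 is that of the ZT18 libraries alone, a wave under this block rests on the other times. At ZT6 the zone count was 5, and 2 to 6 with 1 library left out. In the pericentral zone the wave count was 0, with 1 under library size alone and 0 to 1 with 1 library left out. In the periportal zone it was 2, with 1 under library size alone and 0 to 1 with 1 library left out. The replicate block, where letters do not pair all times, also gave Cyp7b1 a wave (1.07, adjusted p = 0.0358) and a ZT18 difference (1.97, 0.0201); no other member gained or lost a wave by it. Over all genes, calls of a wave went from 458 to 749 with the replicate block, 792 with DESeq2, 710 without the limit, 283 at 20 CPM and 231 without both ZT18 libraries. Calls of ZT12 against ZT0 went from 306 to 504 with the replicate block, 767 with the index number block, 469 without the limit and 184 from those libraries alone; library size alone moved the median by 0.13 and the split from 155 higher and 151 lower to 202 and 101. Calls of ZT18 against ZT6 went from 338 to 730 with the replicate block, 595 without the limit, 199 at 20 CPM, 1849 from those libraries alone and 50 to 80 without 1 of them. Zone calls went from 2210 to 1227 in cells of at least 3000 UMIs, and zone-dependent waves from 4 to between 0 and 46. The sign-flip test of the ratios within letters (the replicate block of ZT0 and ZT12; changes of 2.56, 2.50 and 1.85) and the values of related genes without libraries were added after seeing the data.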
